A study of Homo sapiens with 6 samples.

Results

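The 8 genes described here are TXNIP and ARRDC4, their alpha-arrestin paralogues ARRDC1, ARRDC2 and ARRDC3, and the transcription factor genes MLXIP, MLXIPL and MLX. They were chosen by name, with earlier results of the same comparison known, among them the large fall of TXNIP. Their values in that comparison, and whether each passed the threshold of the test, are therefore given as a description. No p-value is printed for them. All 8 were found among the 19470 gene symbols of the count table, and all 8 were among the 13336 genes with enough counts to be tested. The libraries came from A549, a human lung adenocarcinoma cell line, labelled wild type. In the dormant group (3 libraries, tagged SF) the cells had been treated to induce dormancy, and in the activated group (3 libraries, tagged OC) they had been activated with medium conditioned by osteoclasts, the cells that resorb bone. The sources used here do not say how dormancy was induced, what the base media were, or whether the 3 libraries of a group were separate cultures. A difference of cell state and a difference of medium cannot be told apart, and the spread between libraries may be technical.

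Alpha-arrestins are adaptor proteins. Most of them carry PPxY motifs that recruit ubiquitin ligases of the NEDD4 family to membrane proteins, which are then internalised. TXNIP binds thioredoxin and restrains glucose uptake by promoting the internalisation of glucose transporters, and ARRDC4, a close paralogue, also restrains glucose uptake. Transcription of both genes is driven by MondoA (encoded by MLXIP) or its paralogue ChREBP (encoded by MLXIPL), which bind DNA as partners of MLX and become active when glucose 6-phosphate accumulates in the cell.

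Total counts lay between 34128471 and 36667725 per library. At an adjusted p under 0.05, 36.5% of all tested genes were higher in activated libraries and 37.2% lower. All 10 markers listed for A549 and lung adenocarcinoma epithelium were tested, and 6 were higher and 2 lower. Their summed level was 7598 to 8203 CPM (counts scaled to library size with TMM factors) in dormant and 16039 to 17468 CPM in activated libraries. KRT8 had a mean of 1672 CPM in dormant and 3460 CPM in activated libraries. ALDH1A1 was 4.90-fold higher in activated libraries, KRT7 was lower (2165 and 1929 CPM), and EPCAM was low, at 1.28 and 0.611 CPM. The summed level of 8 alveolar type 2 markers was 136 to 144 and 158 to 180 CPM, nearly all of it from ABCA3, which was higher (130 and 168 CPM). Of the 3 of these markers tested, LAMP3 was lower (8.20 and 0.417 CPM) and NAPSA did not pass, while the lung lineage factor NKX2-1 had at most 0.0193 CPM as a group mean and SFTPA1 had no count. The summed level of 10 osteoclast markers was 44.7 to 46.1 CPM in dormant and 16.3 to 17 CPM in activated libraries, and 4 of them (CALCR, OCSTAMP, DCSTAMP and TYROBP) had no count in any library. Of the 6 tested, 4 fell and 1 rose, but ACP5 and ATP6V0D2 had passed the filter on low counts through the dormant group alone and MMP9 through the activated group alone, which fixed their directions. The summed level of 10 myeloid markers was 136 to 148 and 166 to 174 CPM, most of it from CD68 (135 and 152 CPM). AIF1, C1QA, C1QB and C1QC had no count, and PTPRC had at most 0.0508 CPM as a group mean. All 5 tested genes were higher, of which CSF1R and LAPTM5 had passed the filter through the activated group alone and could only be higher. The summed level of 6 stromal markers was 19.7 to 22.9 and 19.2 to 20.8 CPM, with 4 of 5 tested genes higher and 1 lower, where the same held for DCN and PDGFRA among the higher ones. The part of these markers in the results was not tested.

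TXNIP, ARRDC4 and MLXIPL were far lower in activated cells, while MLXIP and MLX, which encode the main sensor and its partner, were almost level. Of the other alpha-arrestin genes, ARRDC2 was lower and ARRDC1 and ARRDC3 were higher, each by at most 1.42-fold. In edgeR's quasi-likelihood test 7 of the 8 genes passed an adjusted p of 0.05, 4 lower and 3 higher, and MLXIP did not pass. Of all tested genes 73.7% passed, 37.2% lower and 36.5% higher. In TMM-scaled CPM the groups did not overlap for 7 of the 8 genes, against 76.5% of all tested genes. Those of ARRDC1 and MLX did overlap in the authors' FPKM. The median log2 fold change was -0.26 for the 8 genes and -0.02 for all tested genes. Scaling by total counts instead of TMM made the split 2 higher and 5 lower, since MLX no longer passed and MLXIP passed as lower.

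**Figure D1:**
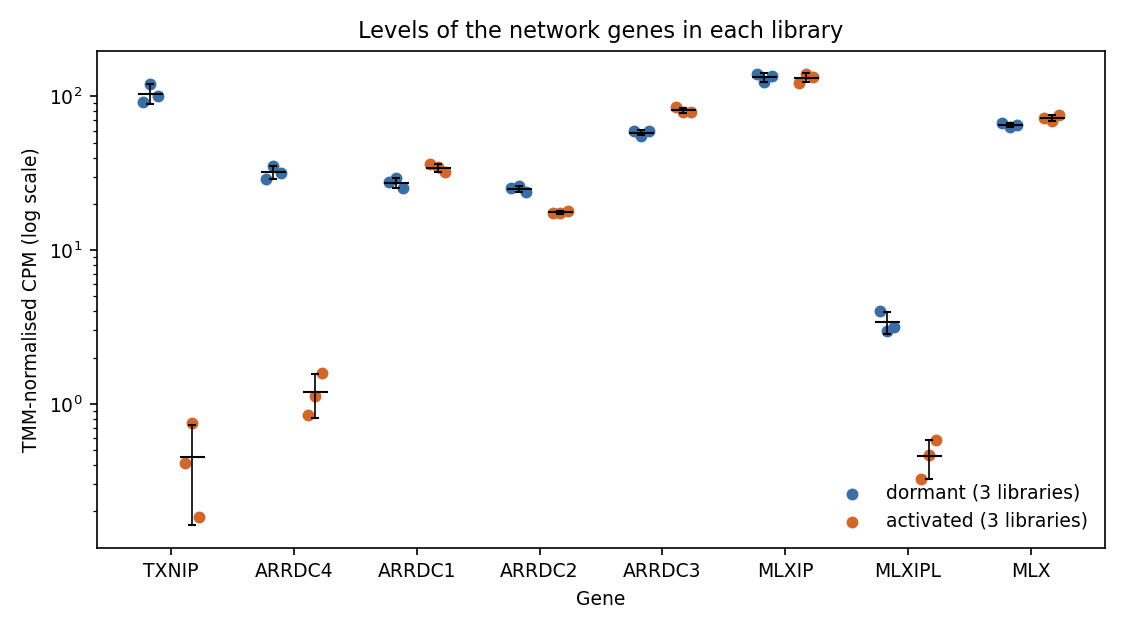
Level of each of the 8 genes in each library, in TMM-normalised CPM on a log axis, with dormant libraries in blue and activated libraries in orange. Horizontal bars are group means and vertical bars the SD of 3 libraries. TXNIP lies between 91.4 and 121 CPM in dormant and between 0.183 and 0.749 CPM in activated libraries, ARRDC4 and MLXIPL show the same direction, and the other 5 genes differ between groups by at most 1.42-fold.

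TXNIP (gene 10628, minus strand, chr1:145992435-145996579 in GRCh38.p14) had 3420, 4714 and 3601 counts in dormant libraries 1, 2 and 3, and 14, 26 and 6 counts in activated libraries 1, 2 and 3. In CPM these were 91.4, 121 and 101 against 0.409, 0.749 and 0.183. The lowest dormant library was far above the highest activated one, and the relative spread was wider among the activated libraries. The group means were 104 ± 15.3 (SD, n = 3) and 0.447 ± 0.285 CPM, a log2 fold change of -7.84 ± 0.19 (SE), or 229-fold lower in activated cells. The summed counts, 11735 and 46, gave a ratio of 232 with an exact binomial 95% interval of 174 to 317, which covers counting error only. Leaving out any 1 library gave fitted values of 179-fold to 346-fold, the largest without activated replicate 2. TXNIP ranked 5 from the largest fall among all tested genes, and it passed the filter on low counts through the dormant group, as 2 of 3 activated libraries were above the filter's level. In bulk RNA, fewer cells with the transcript and less transcript per cell cannot be told apart.

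ARRDC4 (gene 91947, plus strand, chr15:97960703-97973833) had 1092, 1368 and 1136 counts in dormant libraries 1, 2 and 3 and 29, 39 and 52 in activated libraries 1, 2 and 3. Its CPM values were 29.2, 35.2 and 31.8 against 0.848, 1.12 and 1.58. Activated library 3, the lowest for TXNIP, was the highest for ARRDC4, so the 2 genes did not share an order among the activated libraries. In the dormant group library 2 was highest and library 1 lowest for both. The means were 32.04 ± 3.02 and 1.19 ± 0.372 CPM (SD, n = 3), a log2 fold change of -4.76 ± 0.16 (SE), or 27.1-fold lower. The ratio of summed counts was 27.2 (exact binomial 95% interval 22.7 to 32.9), and leaving out any 1 library gave 23.7-fold to 32.3-fold. ARRDC4 ranked 45 from the largest fall.

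The stretches directly before the first listed start sites of TXNIP and ARRDC4 are shown because the 2 genes moved together and are known targets of MLX dimers, which bind paired E-box-like elements (carbohydrate response elements, ChoRE). The MLX stretch is shown because its promoter holds the same full E-box. Sequences are from RefSeq, GRCh38.p14, 5′ to 3′ on the gene's strand and end at the base before the start. Capitals mark every CACG on either strand, here called the E-box core. It is a part of CACGTG, which holds it on both strands, and is not a full E-box.
TXNIP (minus strand, chr1:145996580-145996759): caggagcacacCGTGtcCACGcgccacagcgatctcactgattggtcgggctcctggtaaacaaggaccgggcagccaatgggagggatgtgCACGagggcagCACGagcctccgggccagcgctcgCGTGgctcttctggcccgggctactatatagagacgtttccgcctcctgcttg
ARRDC4 (plus strand, chr15:97960483-97960702): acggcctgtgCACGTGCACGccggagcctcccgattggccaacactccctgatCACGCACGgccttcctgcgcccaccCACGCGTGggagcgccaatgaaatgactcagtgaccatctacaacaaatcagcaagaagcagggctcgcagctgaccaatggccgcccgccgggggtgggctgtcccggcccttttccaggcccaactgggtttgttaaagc
MLX (plus strand, chr17:42567040-42567099): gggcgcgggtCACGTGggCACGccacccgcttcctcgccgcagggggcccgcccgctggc

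Matches were sought on both strands, overlaps allowed, in windows from 250 bases before to 50 bases after each start, and shares refer to 35116 such windows in the RefSeq table. The full E-box CACGTG was found once each in ARRDC4 (210 to 205 bases before the start) and MLX (50 to 45 bases before), and in 7.26% of all windows. TXNIP held no CACGTG but 5 E-box cores, of which a pair lay in the same orientation between 88 and 74 bases before the start with 7 bases between. This same-orientation pair, which was searched for after the TXNIP letters had been read, occurred in 0.609% of all windows and in no other first window of the 8 genes. In its first window ARRDC4 held 8 E-box cores, where each CACGTG counts as 2, while those of MLX and MLXIP held 5 each, of ARRDC2 3, of ARRDC1 2, and of ARRDC3 and MLXIPL none. Any E-box core was present in 67% of all windows, at least 2 in 40.3% and at least 4 in 11.2%. The ChoRE consensus, searched as an inverted pair, and the looser inverted pair of CANGNG matched none of the windows of the 8 genes. Both have 5 bases between, and they matched 0.0883% and 0.564% of all windows. Both hold the second element on the other strand, so the same-orientation pair of TXNIP could not match either. Read as CACGAG, the elements of that TXNIP pair also have 5 bases between. The absence of a match therefore does not show that TXNIP lacks a ChoRE.

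CCAAT boxes, the sites of the factor NF-Y, numbered 2 in TXNIP and 3 in ARRDC4, and 10.8% of all windows held at least 2. Each of ARRDC1, ARRDC3, MLXIP and MLX had 1 in its first window. The forkhead motif GTAAACA was found in TXNIP, 124 to 118 bases before the start, and in the second listed window of ARRDC3, 29 to 23 bases before it, against 3.42% of all windows. For MLXIPL the listed start lies inside the RefSeq gene span, which reaches further upstream. The windows of the second listed starts of TXNIP, ARRDC2 and ARRDC3 held 1, 3 and 2 E-box cores. A match is a description of letters and does not show binding in these cells.

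**Figure D2:**
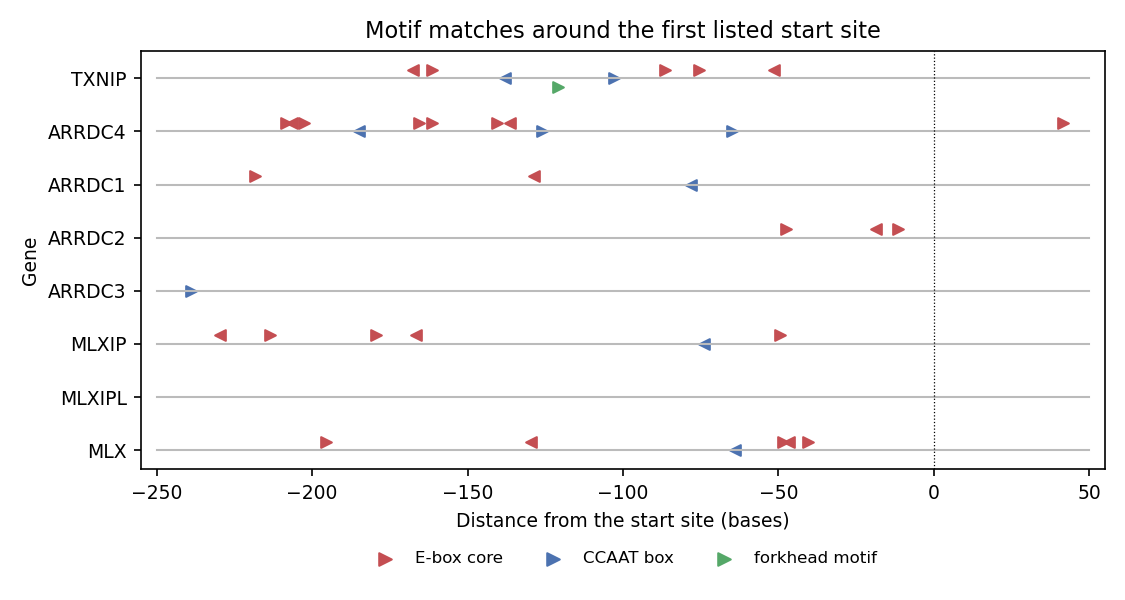
Positions of E-box cores (CACG, red), CCAAT boxes (blue) and forkhead motifs (green) around the first listed start site of each gene. The x axis is distance from the start in bases, and the arrowhead gives the strand of the match. TXNIP and ARRDC4 carry 5 and 8 E-box cores and MLXIPL none.

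MLXIPL, the gene of ChREBP (gene 51085, minus strand, chr7:73593202-73647907), was a low-level transcript, with 150, 116 and 113 counts in dormant libraries 1, 2 and 3 and 11, 16 and 19 in activated libraries 1, 2 and 3. In CPM these were 4.01, 2.98 and 3.16 against 0.322, 0.461 and 0.579, so that all dormant libraries were above all activated ones. The means were 3.38 ± 0.547 and 0.454 ± 0.129 CPM (SD, n = 3), a log2 fold change of -2.89 ± 0.32 (SE), or 7.42-fold lower (1.69-fold on the log2(FPKM + 1) scale, where a pseudocount understates changes of low genes). The ratio of summed counts was 7.48 (exact binomial 95% interval 5.50 to 10.4). MLXIPL ranked 177 from the largest fall, and its paralogue MLXIP did not move with it. A sense-intronic gene overlaps MLXIPL over 2241 bases on the same strand in GENCODE 29.

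MLXIP, the gene of MondoA (gene 22877, plus strand, chr12:122078756-122147344), had 139, 124 and 136 CPM in dormant libraries 1, 2 and 3 and 123, 141 and 134 CPM in activated libraries 1, 2 and 3. The groups overlapped fully, with means of 133 ± 8.05 and 132 ± 8.90 CPM (SD, n = 3) and a log2 fold change of -0.01 ± 0.06 (SE). With total counts the value was -0.15 and passed as lower. The fold between MLXIP and MLXIPL in FPKM (the authors' counts scaled by gene length and library total), which does not depend on the scaling between libraries, went from 16.3, 19.5 and 20.2 in dormant to 179, 143 and 108 in activated libraries.

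MLX (gene 6945, plus strand, chr17:42567100-42573203) encodes the shared partner that both Mondo proteins need to bind DNA. It had 67.2, 63.6 and 65.3 CPM in dormant libraries 1, 2 and 3 and 72.1, 68.9 and 75.7 CPM in activated libraries 1, 2 and 3. The groups did not overlap in CPM but did in FPKM (28.6 to 29.6 in dormant and 27.8 to 30.5 in activated libraries). The difference was small, with a log2 fold change of 0.14 ± 0.06 (SE), a 1.11-fold higher level. It did not pass with total counts (log2 fold change 0.00), with upper-quartile factors (0.12), in the 3 FPKM fits (0.00), without dormant replicate 2 (0.13) or 3 (0.15), or without activated replicate 3 (0.11). MLX overlaps PSMC3IP, a recombination gene on the other strand, over 925 bases in GENCODE 29. PSMC3IP went from 6.47 ± 0.725 to 27.2 ± 0.904 CPM (SD, n = 3), and the sources used here do not say whether counting used strand. Its part in the value of MLX was not tested.

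**Figure D3:**
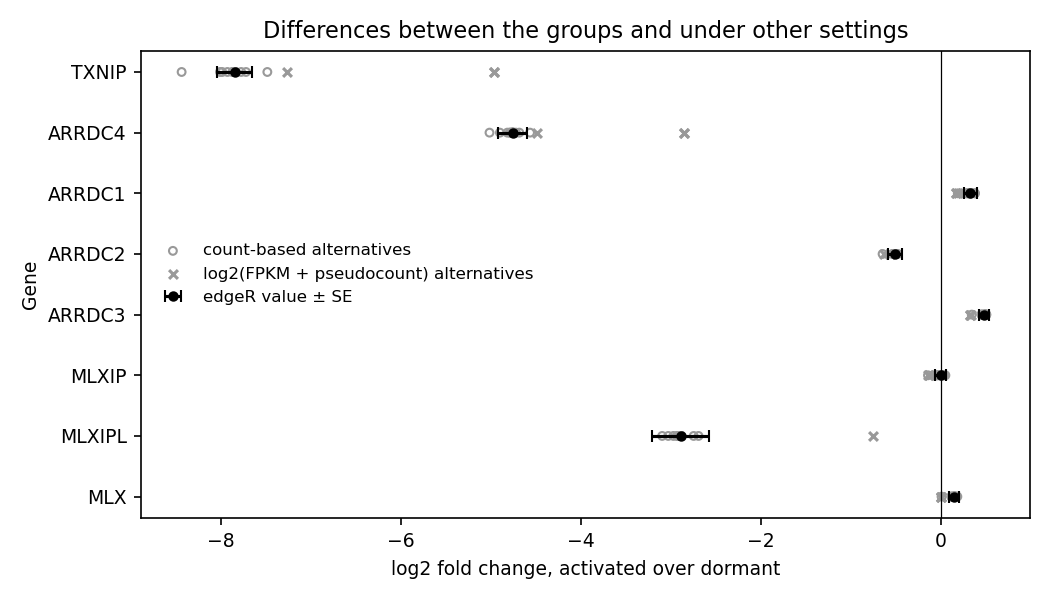
Log2 fold change of each gene, activated over dormant (x axis). Black points with bars are the edgeR values with their SE, open circles the count-based alternatives and crosses the alternatives on log2(FPKM + pseudocount). TXNIP, ARRDC4 and MLXIPL stay below 0 in all of them, and the values of MLX and MLXIP lie next to 0.

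The other 3 alpha-arrestins moved little. ARRDC3 (gene 57561, minus strand, chr5:91368631-91383317), which directs adrenergic receptors and integrin beta 4 to degradation, had 59.4, 55.6 and 59.7 CPM in dormant and 84.9, 79.2 and 79.5 CPM in activated libraries 1, 2 and 3. All activated libraries were above all dormant ones, with a log2 fold change of 0.48 ± 0.06 (SE), or 1.39-fold higher. ARRDC1 (gene 92714, plus strand, chr9:137605686-137615360), which forms microvesicles at the plasma membrane with TSG101, had 27.8, 29.2 and 25.3 CPM against 36.1, 34.9 and 32.2 CPM. The groups were again apart in CPM, with a log2 fold change of 0.33 ± 0.08 (SE), or 1.253-fold higher, a difference that did not pass with unfiltered log2(FPKM + 1). In FPKM the highest dormant library (7.32) was above the lowest activated one (7.23). ARRDC2 (gene 27106, plus strand, chr19:18001124-18014102) had 25.2, 25.955 and 23.9 CPM against 17.4, 17.3 and 18.01 CPM and was the only one of the 3 that was lower, by 1.42-fold (log2 fold change -0.51 ± 0.08 SE). Genes not annotated as protein coding overlap all 3 in GENCODE 29. AL590627.2 shares 9617 bases with ARRDC1 on the same strand, nearly the whole gene span, and on the opposite strand ARRDC1-AS1 shares 29 bases with ARRDC1, AC020904.3 442 bases with ARRDC2 and ARRDC3-AS1 3011 bases with ARRDC3. The sources used here do not say how reads in shared stretches were assigned, so the values of these genes, that of ARRDC1 above all, are uncertain to that extent. ARRDC5, outside the chosen genes, had no count in any library.

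Set side by side per length, in the authors' FPKM, TXNIP was the highest of the 8 transcripts in dormant cells at 34.6 ± 5.41 FPKM (SD, n = 3). MLX followed at 29.1 ± 0.521, MLXIP at 16.1 ± 0.826, ARRDC3 at 12.5 ± 0.397, ARRDC2 at 8.90 ± 0.418, ARRDC4 at 8.28 ± 0.861, ARRDC1 at 6.80 ± 0.527 and MLXIPL at 0.871 ± 0.133 FPKM. Of neighbours in this order, ARRDC2 and ARRDC4 overlapped, and the lowest TXNIP library (30.0) was barely above the highest MLX library (29.6). In activated cells the order was MLX (29.2 ± 1.35 FPKM), ARRDC3 (15.8 ± 0.617), MLXIP (14.5 ± 0.985), ARRDC1 (7.73 ± 0.450), ARRDC2 (5.67 ± 0.119), ARRDC4 (0.278 ± 0.0872), TXNIP (0.134 ± 0.0857) and MLXIPL (0.106 ± 0.0301). TXNIP went from first to next to last, and the level of TXNIP overlapped with those of both ARRDC4 and MLXIPL. ARRDC3 and MLXIP touched, the lowest ARRDC3 and highest MLXIP libraries both being at 15.4 FPKM.

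Within each library, TXNIP made up 45.5%, 51.7% and 48.2% of the summed FPKM of the 5 alpha-arrestins in dormant libraries 1, 2 and 3, and 0.402%, 0.766% and 0.189% in activated libraries 1, 2 and 3. ARRDC4 went from 11.7% ± 0.264 to 0.943% ± 0.319 (SD, n = 3). ARRDC3 took the largest share in activated cells, 53.4% ± 0.757, after 17.7% ± 2.06 in dormant cells. The sum itself was 71.1 ± 6.56 FPKM in dormant and 29.6 ± 0.841 FPKM in activated libraries, so the larger share of ARRDC3 came with a smaller total. The FPKM of TXNIP was 4.01, 4.41 and 4.06 times that of ARRDC4 in dormant libraries and 0.618, 0.853 and 0.148 times in activated libraries, so that the order of the 2 was turned in all 3 activated libraries.

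**Figure D4:**
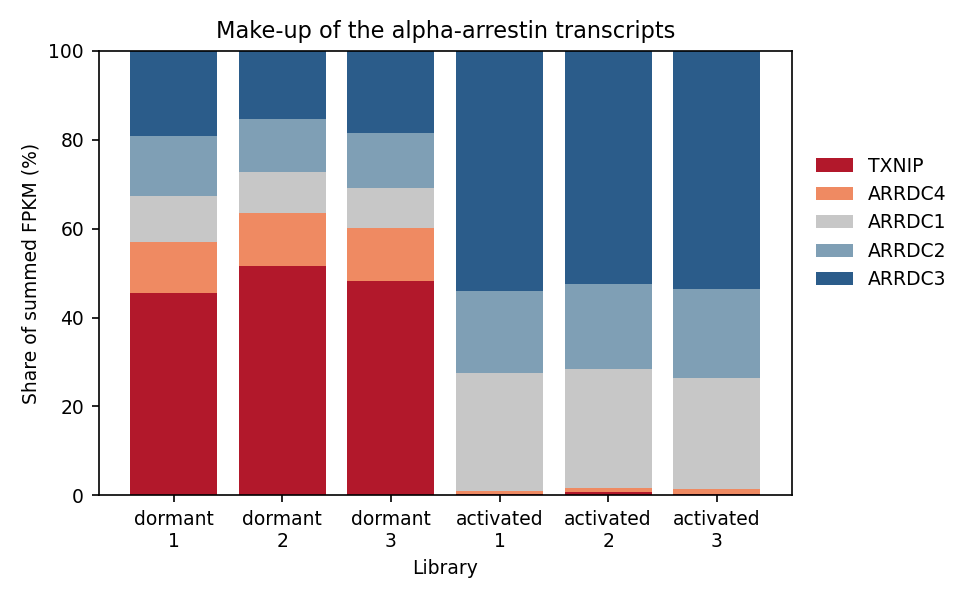
Share of each alpha-arrestin gene in the summed FPKM of the 5 genes, in percent (y axis), for each library (x axis). TXNIP and ARRDC4 fill most of each dormant bar and are barely visible in the activated bars, where ARRDC3 holds 52.6% to 54.1%.

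The genes whose profiles over the 6 libraries lay nearest to that of TXNIP, by root-mean-square distance of log2 CPM after subtraction of the dormant mean, were NUPR1 (distance 1.12), ATF3 (1.26) and BEX2 (1.60), out of 10949 genes whose mean log2 CPM was 2 or more. NUPR1 and ATF3 are stress-induced regulators. The log2 fold changes of NUPR1, ATF3 and BEX2 were -6.52, -6.38 and -6.01, all smaller falls than that of TXNIP. The limit on mean level left out genes such as ATP6V0D2 (-8.06), so genes with a fall nearer to that of TXNIP may be missing. Nearest to ARRDC4 were DDIT3 (0.40), a stress-induced transcription factor that promotes apoptosis, NIBAN1 (0.40), a stress-response gene, and HDAC9 (0.45), a histone deacetylase. Their log2 fold changes were -4.89, -4.34 and -5.30. These distances describe libraries that fall into 2 clusters and mostly reflect the size of the fall.

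Of the thioredoxin system, to which the binding partner of TXNIP belongs, more genes were higher than lower in activated cells. Of 13 tested genes in this list 7 rose and 3 fell (median log2 fold change 0.56, against -0.02 for all tested genes). Of all tested genes 36.5% rose and 37.2% fell, the background for this list and for those below. PRDX1, a peroxidase that thioredoxin reduces, rose from 422 ± 11.7 to 841 ± 47.2 CPM (SD, n = 3; adjusted p = 2.35e-10). TXNRD3, a thioredoxin reductase at a low level, rose 2.31-fold, from 3.80 ± 1.30 to 8.78 ± 1.14 CPM. Its log2 fold change was 1.21, and 1.06 to 1.53 when any 1 library was left out. TXNRD1, the cytosolic reductase, fell from 1415 ± 45.7 to 758 ± 28.2 CPM (adjusted p = 3.45e-10). TXN itself, named outside the rule after its value was seen, went from 516 ± 13.4 to 452 ± 44.7 CPM (log2 fold change -0.19, adjusted p = 0.0126). In FPKM, TXN was 24.1, 18.9 and 21.6 times TXNIP in dormant libraries and 5284, 2392 and 10314 times in activated libraries.

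Genes that take up and trap glucose were mostly higher in activated cells. Of 12 tested genes 8 rose and 2 fell (median 0.48). GPI, which converts glucose 6-phosphate to fructose 6-phosphate, rose from 437 ± 14.03 to 1458 ± 35.6 CPM (adjusted p = 2.97e-13), and SLC2A1, the GLUT1 transporter and a known cargo of TXNIP, from 205 ± 17.6 to 385 ± 8.11 CPM. HKDC1, a hexokinase domain protein, fell from 587 ± 33.9 to 72.3 ± 11.8 CPM (log2 fold change -3.02, adjusted p = 9.53e-13).

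Other genes reported as targets of MondoA or ChREBP did not share 1 direction. Of 19 tested, 10 fell and 7 rose (median -0.25). KLF11, a Krüppel-like transcription factor, fell from 76.7 ± 4.44 to 17.3 ± 1.30 CPM (adjusted p = 1.86e-12). GPD1, a glycerol phosphate dehydrogenase, had 113 dormant and 6 activated counts, passed the filter through its dormant level alone, so a fall was the only change that could be found. Its log2 fold change of -4.01 lay between -4.91 and -3.69 when any 1 library was left out, with -4.91 without activated replicate 2. LDHA, lactate dehydrogenase A, rose from 632 ± 8.18 to 4007 ± 340 CPM (log2 fold change 2.67, adjusted p = 4.36e-14). Named outside the rule, after their values were seen, KLF10 fell from 188 ± 5.73 to 101 ± 2.33 CPM, while the glycolytic genes PFKFB3 and HK2 rose, from 292 ± 6.85 to 510 ± 11.96 CPM and from 5.65 ± 1.16 to 9.89 ± 3.56 CPM. Also outside the rule, PDK4, PPP1R3B and SCD fell more than KLF10 (log2 fold changes -1.96, -1.95 and -1.31). KHK, ACACB and TKFC rose more than PFKFB3 and HK2 (1.36, 1.15 and 0.84). Not all reported targets thus shared the sign of TXNIP and ARRDC4.

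In the MAX network, of which MNT and some but not all MXD proteins are further partners of MLX, 7 of 9 tested genes fell and 2 rose (median -0.89). MXD1 fell from 46.6 ± 1.05 to 9.64 ± 0.152 CPM (adjusted p = 1.24e-12) and MNT from 109 ± 2.60 to 45.8 ± 1.40 CPM. MXD3 rose from 1.82 ± 0.440 to 6.80 ± 1.12 CPM (adjusted p = 1.76e-06). MXD4, named outside the rule after its value was seen, rose from 30.1 ± 2.29 to 50.3 ± 4.30 CPM (adjusted p = 6.24e-07). The MXD genes thus did not share a direction.

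Among the NEDD4-family ubiquitin ligases and their adaptors, the partners of alpha-arrestins, 8 of 11 fell and 1 rose (median -0.36). NEDD4L fell from 94.5 ± 2.90 to 36.0 ± 2.67 CPM (adjusted p = 4.52e-11) and HECW2 by 0.63 on the log2 scale, while SMURF2 rose from 61.5 ± 2.40 to 83.7 ± 2.47 CPM. Of 6 tested genes with a related arrestin fold, 4 fell and 2 rose (median -0.76). VPS26C fell from 90.2 ± 1.21 to 29.5 ± 1.08 CPM and ARRB2, beta-arrestin 2, from 106 ± 6.01 to 42.2 ± 3.17 CPM (adjusted p = 1.29e-10). ARRB1 rose 1.37-fold, a call that ended with total counts (0.31 on the log2 scale, adjusted p = 0.0638) and in all 3 limma fits of FPKM, with 0.18 on the log2(FPKM + 1) scale (adjusted p = 0.0954, and 0.146 unfiltered) and 0.29 on the log2(FPKM + 0.1) scale (adjusted p = 0.104).

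Of 12 tested cargoes and vesicle partners of alpha-arrestins, 8 fell and 3 rose (median -0.21). TSG101, which ARRDC1 recruits to bud vesicles, fell from 148 ± 5.29 to 73.2 ± 4.29 CPM (adjusted p = 5.10e-10) and SLC11A2, an iron transporter, from 93.6 ± 3.70 to 50.05 ± 0.663 CPM. The largest rise in this list was that of SLC2A1, given above. In the list of AMPK subunits, whose kinase phosphorylates TXNIP, and of 14-3-3 proteins, which hold MondoA in the cytoplasm, 7 of 13 fell and 3 rose (median -0.18). PRKAB2 and PRKAG2, regulatory AMPK subunits, fell from 61.7 ± 3.66 to 17.5 ± 0.644 CPM and from 76.8 ± 2.75 to 28.3 ± 4.99 CPM, and the 14-3-3 gene YWHAQ rose from 561 ± 4.44 to 766 ± 24.0 CPM (adjusted p = 4.40e-07).

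Of 6 tested genes of the NLRP3 inflammasome, a complex that TXNIP is known to bind, 3 rose and 3 fell (median 0.11). IL1B rose from 0.679 ± 0.322 to 3.36 ± 0.202 CPM (adjusted p = 2.34e-05) and PYCARD from 8.46 ± 0.406 to 26.1 ± 0.617 CPM. CASP1 fell from 2.98 ± 0.634 to 1.90 ± 0.316 CPM (adjusted p = 0.0324), a call lost with the replicate number as a block (adjusted p = 0.0551) and without dormant replicate 2 (0.0793) or 3 (0.145) or activated replicate 2 (0.0938) or 3 (0.0803). NLRP3 had no dormant count and 9 activated counts and was not tested.

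**Figure D5:**
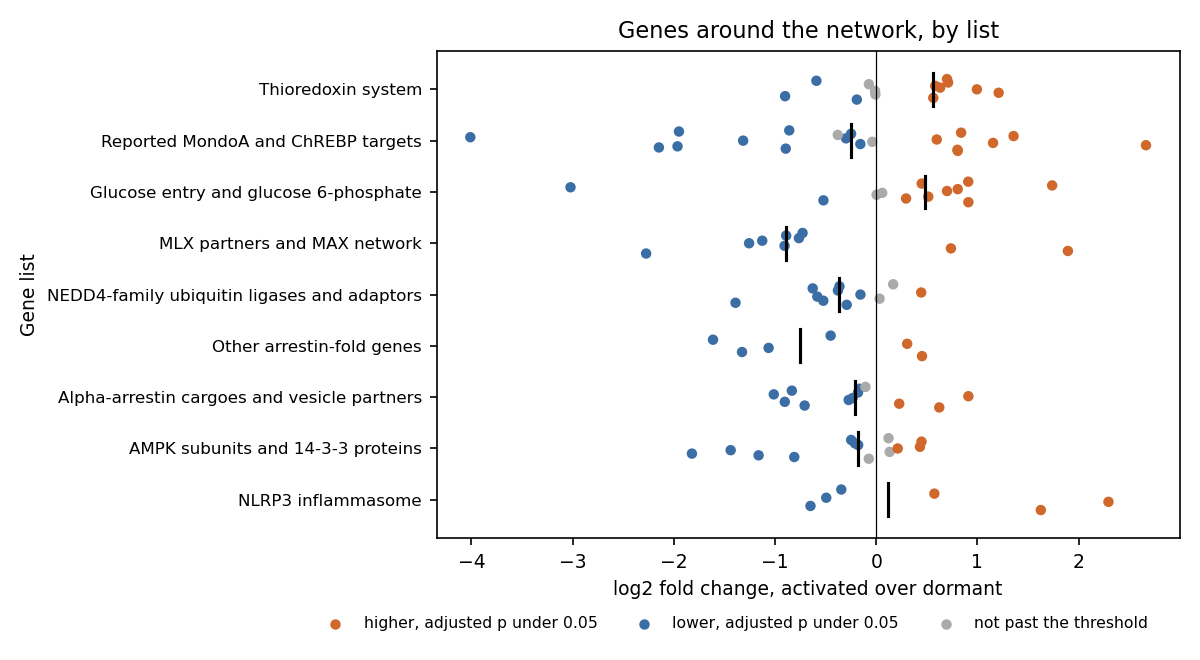
Log2 fold change, activated over dormant (x axis), of each tested gene of the 9 lists around the network. Orange points passed as higher, blue as lower and grey did not pass, and the vertical black bars are list medians. Thioredoxin and glucose entry genes lie mostly to the right (medians 0.56 and 0.48), and MAX network genes mostly to the left (median -0.89).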

How the data were processed

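RNA sequencing libraries of 6 A549 samples, 3 per group, were compared. The authors deposited whole-number counts per gene symbol and FPKM values. Scaling of the FPKM values by the library total was checked between dormant library 1 and activated library 1. It held for all 10933 genes with at least 100 counts in both, within a relative tolerance of 0.001. Gene length cancels in this check, so the lengths behind the FPKM values were not checked, and the other libraries were not compared. The tools fastp, HISAT2 and HTSeq and the build GRCh38 were used, per the submitters' processing notes. The sources used here do not give versions, annotation or strand setting.

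Counts were fitted with edgeR 4.0.16 (R 4.3.3), TMM factors, the default low-count filter by group, the quasi-likelihood test and Benjamini-Hochberg adjustment over all 13336 tested genes, with a threshold of 0.05. The standard error is the log2 fold change over the square root of F. The procedure was tested on simulated counts in which only a small share of the genes was changed, in both directions. That share was far below the one found here, so the simulation does not check the scaling or the error rate for these data. Replicate libraries differed by more than sampling noise (chi-square per degree of freedom 4.87 to 22.5), so each was counted once. The members and lists were chosen with earlier results of these data known. Their calls and the adjusted p-values of list genes therefore describe these data and are no independent support. Named genes are the members, for each list the 2 largest changes in its majority direction and the 1 largest in the other, and the 3 nearest profiles to TXNIP and ARRDC4. Genes named outside this rule are marked. Alternatives were DESeq2 1.42.0, limma 3.58.1 (voom, or log2 FPKM with a pseudocount of 1 or 0.1, filtered at a mean of 0.5 FPKM or unfiltered), other scalings and filters, a replicate block and leaving out each library. Coordinates and promoter sequences are from RefSeq GRCh38.p14, where all 8 symbols matched. Overlaps are from GENCODE 29. A comparison of the protein sequences was not made.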

Additional observations from a re-analysis of the deposited data

How the results depend on the processing

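The number of changed genes, 9830, lay between 9109 and 10009 under the other scalings, tools, filters and units, and between 9298 and 9756 without any 1 library. The higher share of these calls was 49.5%, and 39.7% with total counts, which moved the median of all genes by -0.14. For the 8 genes, 124 of 134 values kept their side of the threshold and no called value changed sign, while MLXIP, which had no call, lay between -0.15 and 0.05 in the count-based fits. The exceptions were 8 of MLX, 1 of ARRDC1 and 1 of MLXIP. The number of members higher was 1 with unfiltered log2(FPKM + 1), where MLX and ARRDC1 did not pass, and 2 to 3 without any 1 library. The fold of TXNIP was 31.2 on the log2(FPKM + 1) scale and 154 on the log2(FPKM + 0.1) scale, as a pseudocount understates falls to low levels, and that of ARRDC4 7.25 and 22.5. MLXIPL was below the FPKM filter, and without that filter its fold was 1.69 on the log2(FPKM + 1) scale, against 7.42 from counts. In the ubiquitin ligase list 2 genes were higher with DESeq2 size factors, and 1 to 2 without any 1 library. Among arrestin-fold genes 1 was higher with total counts and in each FPKM fit, where ARRB1 did not pass, and among cargoes 1 was higher with unfiltered log2(FPKM + 1). Counting E-box cores in place of CACGTG gave 5 in TXNIP, 8 in ARRDC4, 2 in ARRDC1, 3 in ARRDC2, 5 in MLXIP and 5 in MLX.

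A replicate block gave 9789 changed genes and 7 members past the threshold, 3 higher and 4 lower. Same-numbered libraries deviated together only weakly, if at all (correlations -0.02, 0.02 and 0.00), and the numbers were therefore not treated as pairs. Depth limited TXNIP, MLXIPL and GPD1 in activated libraries, where they had 46, 46 and 6 counts in all. Protein levels, glucose uptake and the activity of MondoA were not measured in these data.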
